A study of Mus musculus with 8 samples.

Results

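The carcinoma cells described here are the 250 cells of the medium size tumor with the highest mean level of 7 genes, Hmga2, Cldn6, Mcpt8, En1, Cpe, Anxa10 and Dok2. They were taken from 2812 cells of that tumor and 4345 cells of both tumors sequenced. A cell is a column of a tumor's table, which stands for 1 barcode, and the axes of the plots call it a column. The score of a cell is the mean over the 7 genes of log2(1 + UMIs per 10000 UMIs of the cell), where a unique molecular identifier (UMI) stands for 1 captured mRNA molecule. To keep macrophages out, only the 2495 cells with a UMI of fewer than 5 of 11 macrophage genes (Lyz2, C1qa, C1qb, C1qc, Cd68, Csf1r, Adgre1, Mrc1, Cd14, Fcgr3 and Ms4a7) were ranked, so the members are 10.0% of the ranked cells. The measured levels of these 7 genes chose the members, and every other gene was read in the same cells. All values below are therefore descriptions of the chosen cells and no test was made.

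Both tumors came from untreated KPC mice, which carry Cre-activated alleles, among them LSL-Trp53R172H/+, together with the Pdx-1-Cre driver, active in cells of the pancreatic lineage, and develop pancreatic ductal adenocarcinoma. A medium size tumor and a large size tumor were dissociated with a Miltenyi kit and captured with 10x Genomics Chromium 3′ v2 chemistry. Per the labels each tumor was run as 4 technical replicates, but its table pools them, so each tumor is 1 sample and cells are not replicates of it. Sums carry exact 95% Poisson intervals and shares exact 95% binomial intervals, and both cover counting error only.

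In many adult tissues Hmga2, an architectural chromatin protein that bends AT-rich DNA, is silent after fetal life and returns in carcinomas, as does the tight junction protein Cldn6 of embryonic epithelia. En1 encodes an engrailed homeobox transcription factor of the developing brain and skin. Cpe is carboxypeptidase E, which trims peptide hormones in secretory granules, and Anxa10 is an annexin of gastric-type epithelium. Mcpt8 is a granule serine protease known from basophils, and Dok2 is a docking protein that dampens tyrosine kinase signaling in myeloid and T cells. Pancreatic carcinoma cells range from a glandular state with secreted mucosal products to a less differentiated state with mesenchymal genes.

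The genes of the rule lie on 5 chromosomes of GRCm38. Hmga2 lies at chr10:120361275-120476469, Cldn6 at chr17:23679249-23682446, Mcpt8 at chr14:56082166-56085273 and En1 at chr1:120602418-120607992. Cpe (chr8:64592542-64693054), Anxa10 (chr8:62057042-62123150) and Dok2 (chr14:70766036-70778495) share chromosomes with others of the rule. The RefSeq promoter windows of GRCm38, from 250 bases before to 50 bases after the RefSeq start, were read for the genes matched, which were Hmga2, Cldn6, Mcpt8, En1 and Anxa10. Those of 4 genes of the rule are shown 5′ to 3′ on the gene's own strand, to set the base composition of the windows side by side. Capitals mark the letters of a TATA box (TATAAA), of the GC box bound by Sp1 (GGGCGG), of the AP-1 site (TGACTCA) or of the core site of TEAD factors (GGAATG), on either strand.
Hmga2 (chr10:120476420-120476719, minus strand): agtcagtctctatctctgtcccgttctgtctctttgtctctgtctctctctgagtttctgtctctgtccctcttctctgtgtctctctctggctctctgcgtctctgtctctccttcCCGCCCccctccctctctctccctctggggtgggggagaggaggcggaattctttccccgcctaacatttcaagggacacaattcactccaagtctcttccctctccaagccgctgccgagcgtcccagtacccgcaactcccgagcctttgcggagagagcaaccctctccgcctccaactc
Cldn6 (chr17:23679115-23679414, plus strand): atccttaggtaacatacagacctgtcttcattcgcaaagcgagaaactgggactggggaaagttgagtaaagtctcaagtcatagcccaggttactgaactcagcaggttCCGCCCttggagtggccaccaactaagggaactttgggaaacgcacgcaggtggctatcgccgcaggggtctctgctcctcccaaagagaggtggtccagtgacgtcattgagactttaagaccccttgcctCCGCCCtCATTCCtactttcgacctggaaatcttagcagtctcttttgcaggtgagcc
Mcpt8 (chr14:56085148-56085447, minus strand): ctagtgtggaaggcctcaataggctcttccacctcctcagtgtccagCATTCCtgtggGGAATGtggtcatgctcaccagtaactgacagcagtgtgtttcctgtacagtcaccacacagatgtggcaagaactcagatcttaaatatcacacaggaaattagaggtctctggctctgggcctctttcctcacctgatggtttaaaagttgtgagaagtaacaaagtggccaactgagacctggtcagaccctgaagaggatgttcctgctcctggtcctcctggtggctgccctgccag
Anxa10 (chr8:62123144-62123443, minus strand): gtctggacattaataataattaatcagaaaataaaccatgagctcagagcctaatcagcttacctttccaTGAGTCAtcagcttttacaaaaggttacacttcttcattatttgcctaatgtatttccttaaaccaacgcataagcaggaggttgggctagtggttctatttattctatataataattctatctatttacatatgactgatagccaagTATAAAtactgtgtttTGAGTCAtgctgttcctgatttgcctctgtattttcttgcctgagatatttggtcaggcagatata
The windows differ in composition. That of Hmga2 has a GC content of 57.7% and 12 CpG, that of Cldn6 52.3% and 10 CpG, that of Mcpt8 51.0% and 0 CpG, and that of Anxa10 34.3% and 1 CpG, beside medians of 52.7% and 7 CpG over 32851 promoters. The GC box occurs in the windows of Hmga2 and Cldn6 and in 35.7% of all promoters. The AP-1 site occurs at 2 positions in the Anxa10 window and in that of En1, and in 5.20% of all promoters. The TEAD site occurs in the windows of Cldn6 and Mcpt8 and in 14.7% of all promoters, while the TATA box is in the Anxa10 window and in 13.6% of all. No motif of the 4 is shared by all of these windows. A match of letters is a description and says nothing about binding.

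The scores of the members ran from 1.55 to 2.96, with a median of 1.80. The cut fell on a slope without a gap, since the lowest member had a score of 1.554 and the highest cell outside 1.551. Within 0.1 of the cut there were 49 members and 68 cells outside it. The members are therefore the upper range of a graded score and not a type with an edge. At the other end, 472 of the ranked cells had a score of 0, with no UMI of any of the 7 genes. The screen removed 317 cells, of which 4 scored above the cut.

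**Figure D1:**
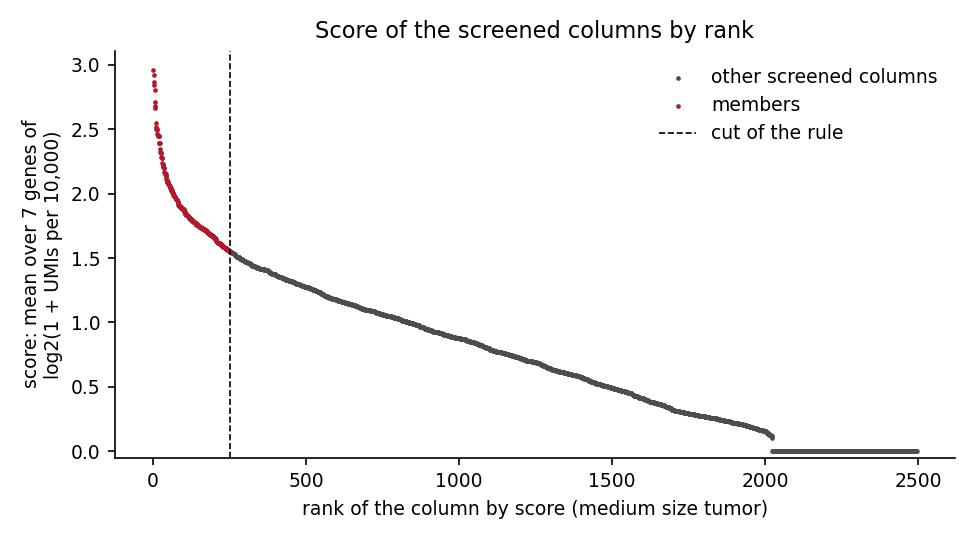
Score of each of the 2495 ranked cells of the medium size tumor against its rank. The dashed line is the cut after 250 cells, where the scores are 1.554 on the inside and 1.551 on the outside, and 472 cells lie at 0.

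The label of carcinoma cells was checked against lists of cell type markers. A cell went to the class of which it had the greatest fraction of markers with a UMI, and 247 of the 250 members (98.8%, 96.5% to 99.8%) were epithelial. The other members were 1 fibroblast, 1 red blood cell and 1 macrophage by the same rule. A median of 8 of the 11 epithelial markers had a UMI in a member, as in the 2049 other cells that were epithelial and passed the screen, here called the other carcinoma cells. These markers cannot tell a carcinoma cell from a normal duct cell. On the log2 scale 4 of the 11 markers were above 0 in the members over the other carcinoma cells and 7 below 0, with a median of -0.27. Krt18, a simple epithelial keratin, was at 4620 CPM (UMIs of the gene per 1000000 UMIs summed over the cells of the group) in the members and 4192 CPM in the other carcinoma cells. Krt8, its partner keratin, was at 3186 and 3136 CPM, and the ductal keratin Krt7 at 1915 and 1346 CPM. Cdh1, E-cadherin, was seen in 79.6% of the members and 70.4% of the others. By ratio Cldn3, a tight junction claudin, stood lowest of the 11, at 84.9 CPM (73.2 to 97.9) against 236 CPM (228 to 244). Elf3, an epithelial transcription factor, was at 69.7 against 131 CPM, and the claudins Cldn4 and Cldn7 at 68.8 and 230 CPM against 99.6 and 306 CPM. Tspan8, Spint2 and Muc1 were below 0 as well, at 575, 684 and 253 CPM against 732, 828 and 275 CPM.

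Markers of other cell types were read as summed levels of their lists. All 11 macrophage genes of the screen had UMIs in the members, with a summed level of 264 CPM against 303 CPM in the other carcinoma cells and 25713 CPM in the 263 macrophages. The highest member held 1426 CPM of them, and the lowest macrophage 429 CPM. The screen on these same genes fixes a low level in the members and the other carcinoma cells. It is therefore no check of the label. Fibroblast genes summed to 25.9 CPM against 76.1 CPM, with Pdgfra and Fap at 0, and endothelial genes to 46.0 against 40.0 CPM, with Tie1 at 0. Mesothelial genes summed to 341 and 336 CPM, with Upk3b, Wt1 and Upk1b at 0 in the members, so this level is that of the other genes of the list. Of the 10 mast cell and basophil markers, 8 were at 0 UMIs in the members, among them Cpa3, Fcer1a and Ms4a2, where a floor of 3 UMIs over the members is 1.34 CPM for each. Kit had 1 UMI and Hdc had 3. Chga, Syp, Pcsk1 and the islet hormone genes Ins1, Ins2, Gcg, Sst and Ppy were at 0 as well. Red blood genes summed to 378 CPM against 50.4 CPM, and 771 of their 847 UMIs were in 1 member.
The remaining lists, of granulocyte, dendritic, T and NK, B, acinar and smooth muscle genes, summed to between 0 and 68.4 CPM in the members, with acinar genes at 68.4 against 139 CPM and B cell genes at 35.3 against 16.2 CPM. Their part in the results below was not tested.

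The members were deeper than the cells they are set against, with a median of 7376.5 UMIs and 2456 genes per cell against 5743 UMIs and 2067 genes in the other carcinoma cells. Over the 2495 ranked cells the Spearman rho between score and UMIs was 0.24, where both come from the same UMIs, and within the members it was -0.01. For the genes of the rule, shares of cells are therefore also given after thinning each cell to 2500 UMIs. Thinning left out no cell, since the shallowest cell of this tumor had 2704. Shares not called thinned carry the difference in depth, and its part in them was not tested. Scrublet called 0 of the 2812 cells doublets, and 11 members (4.40%) were among the 5% of cells with the highest doublet scores. The tables of both tumors share 5 barcodes, none of them a member's.

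All of the 7 genes had higher levels in the members, which the rule fixes, but their sizes differed widely. Mcpt8 stood out most, with 1558 UMIs in the 250 members and 815 in the 2049 other carcinoma cells. Its level was 696 CPM (662 to 732) against 53.1 CPM (49.5 to 56.9), a ratio of 13.1 (12.0 to 14.3). The members, 8.89% of the tumor's cells, held 63.3% of all its Mcpt8 UMIs. A member had a median of 3 Mcpt8 UMIs and at most 89. At least 1 UMI was seen in 78.4% of the members and 15.6% of the others, or 55.6% and 7.76% after thinning.

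Hmga2 was at 569 CPM (538 to 601) in the members and 148 CPM (142 to 154) in the other carcinoma cells, a ratio of 3.84 (3.59 to 4.12). It was seen in 87.2% of the members, with a median of 4 UMIs and at most 26, and in 34.8% of the others, or 66.4% and 21.7% after thinning. The other carcinoma cells still held 59.7% of all Hmga2 UMIs, so most of its RNA lay outside the members. Cldn6 was at 496 CPM (467 to 526) against 164 CPM (158 to 171), a ratio of 3.02 (2.81 to 3.24). It was seen in 225 of the 250 members and 38.7% of the others, or 63.6% and 22.9% after thinning. En1 was a low gene, with 237 and 345 UMIs. Its ratio was 4.71 (3.97 to 5.57). It was seen in 48.8% of the members and 12.7% of the others, or 23.6% and 4.83% after thinning.

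Cpe had the highest level of the 7 and one of the lowest ratios. It was at 1408 CPM (1359 to 1458) against 545 CPM (534 to 557), a ratio of 2.58 (2.48 to 2.69). It was seen in 99.6% and 68.7% of the cells, or 94.8% and 52.7% after thinning. Anxa10 was at 230 CPM (210 to 250) against 89.9 CPM (85.2 to 94.7), a ratio of 2.56 (2.30 to 2.83). It was seen in 60.0% and 30.7%, or 37.2% and 15.4% after thinning. Dok2 rested on 205 and 268 UMIs, with 91.6 CPM (79.5 to 105) against 17.5 CPM (15.4 to 19.7).

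Free RNA in droplets gives UMIs in cells that do not express a gene, and the macrophages, with a median of 3587 UMIs, serve as a background. After thinning, Mcpt8 was seen in 2.28% of them, Hmga2 in 3.80%, Cldn6 in 2.66%, En1 in 1.14% and Anxa10 in 1.90%, each below the share in the other carcinoma cells. Cpe was seen in 14.1% of the macrophages after thinning against 52.7% of the other carcinoma cells. Dok2 was the exception. It was seen in 12.5% of the macrophages after thinning, above the 3.76% of the other carcinoma cells and below the 21.2% of the members, so for Dok2 the macrophages are not a background.

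**Figure D2:**
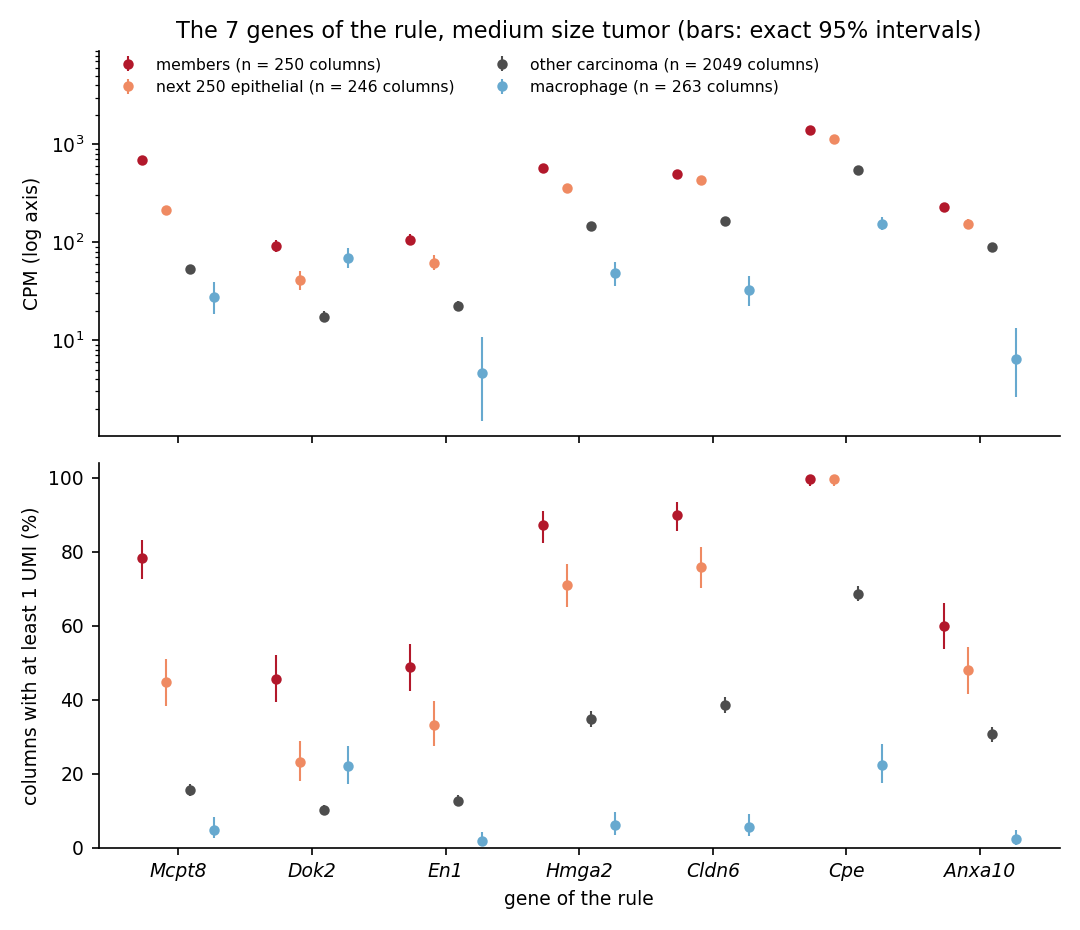
Level (upper panel, CPM on a log axis) and share of cells with at least 1 UMI (lower panel, %) of the 7 genes in the members, the next cells by score, the other carcinoma cells and the macrophages of the medium size tumor, with exact 95% intervals. The step from the members to the next cells is widest for Mcpt8 (696 to 215 CPM) and narrowest for Cldn6 (496 to 434 CPM), and Dok2 is the only 1 of the 7 higher in the macrophages than in the other carcinoma cells.

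The 7 genes were seldom seen all together. Of the members, 26 had a UMI of each of the 7, 68 had 6, 73 had 5, 70 had 4 and 13 had only 3. At least 5 genes were seen in 66.8% of the members and in 5.61% of the other carcinoma cells. Hmga2 and Cldn6 were seen together in 195 members (78.0%) and in 401 of the other carcinoma cells (19.6%). The rarest pair in the members was En1 with Dok2, in 24.4%. The rule picks cells high in these 7 genes, so the higher shares in the members follow from it. These shares were not thinned, although the members were deeper.

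Each gene of the rule was also left out of the score in turn, and 250 cells were picked again by the other 6 genes. The left-out gene then had a ratio above 1 each time. Mcpt8 was at 368 CPM (342 to 395) in the cells picked without it and at 105 CPM (99.5 to 110) in the other carcinoma cells, a ratio of 3.52 (3.22 to 3.84). The ratio was 3.30 (2.75 to 3.94) for En1, 3.13 (2.55 to 3.82) for Dok2 and 2.17 (2.08 to 2.26) for Cpe. It was lower for Hmga2 at 1.90 (1.75 to 2.06), for Cldn6 at 1.74 (1.60 to 1.89) and for Anxa10 at 1.44 (1.27 to 1.63). These picks shared 176 to 225 cells with the members, which the left-out gene had helped to choose. The rule itself was set with earlier results of these data known. Ratios above 1 are therefore no separate evidence that the genes of the rule go together. Depth differed between the picked and the other cells here too, and its part in these ratios was not tested.

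The members did not form 1 cluster. Seurat divided the 2812 cells into 14 clusters, and 6 of them held members. Cluster 2 held 121 of the 250, which is 36.3% of its 333 cells, cluster 7 held 46 of its 230 cells, clusters 1 and 3 held 32 each, cluster 6 held 17 and cluster 5 held 2. Clusters 4 and 8, which are also epithelial, had a median score of 0 and held no member. With the genes of the rule left out of the clustering, members lay in 8 of 14 clusters, and the largest group was 96 members in a cluster of 256 cells.

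The 7 genes did not share 1 pattern among the members of these clusters. Hmga2 was highest in the members of cluster 7, at 848 CPM, and at 211 CPM in those of cluster 1. Cldn6 was highest in the 17 members of cluster 6, at 951 CPM, and at 263 CPM in those of cluster 7. Anxa10 went another way, with 465 CPM in the members of cluster 1 and 69.1 CPM in those of cluster 7. En1 was at 0 UMIs in the 17 members of cluster 6 and at 125 to 129 CPM in those of clusters 1, 2 and 3. Mcpt8 was at 876 CPM in the members of cluster 7 and 808 CPM in those of cluster 2. Since the members were chosen by the mean of these genes, a member low in some of them had to be high in others.

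Outside the 7 genes, the members differed from the other carcinoma cells more by what was low than by what was high. Of 9112 genes with at least 100 UMIs over both groups, 29 (0.318%) were at least 2-fold higher in the members and 109 (1.20%) at least 2-fold lower, on a scale with 10 CPM added to both levels, together 138 (1.51%). These counts depend on the settings, with 89 higher and 335 lower when 1 CPM is added, and 16 higher when the cells are picked without Hmga2. The median log2 ratio of all 9112 genes was 0.03. Named below are the 15 highest and the 15 lowest that were seen in at least 25% of the cells of the group where they are higher. Since the members were chosen on counts of the same cells, these folds describe them and were not tested.

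The highest ratios outside the rule belonged to genes of different functions. Fam213a, a peroxiredoxin-like protein, had 1976 UMIs in the members and 5294 in the other carcinoma cells. Its level was 883 CPM (844 to 923) against 345 CPM (336 to 354), a log2 ratio of 1.33, and it was seen in 94.0% and 67.3% of the cells. Igfbp7, a secreted insulin-like growth factor binding protein, was at 1891 against 905 CPM. Both were widespread, and no member held more than 2.94% of the members' UMIs of either.

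Prrx2, a homeobox factor of embryonic mesenchyme, was at 244 CPM (224 to 265) against 93.8 CPM (89.0 to 98.8), and Sox11, a factor of fetal neural and mesenchymal tissue, at 159 CPM (143 to 176) against 64.3 CPM (60.3 to 68.4). F2r, the thrombin receptor PAR1, was at 240 against 94.7 CPM and was seen in 68.4% of the members and 28.5% of the others. Npy, a neuropeptide, was at 1031 against 475 CPM, with 385 of its 2307 UMIs in 1 member and a UMI in 48.4% of them. Ptprn, a membrane protein of dense core secretory vesicles, was low, with 122 and 296 UMIs.

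Others of the 15 were Ggct, Ivl, Piezo2, Slc20a1, Tnnt2, Fxyd5 and Antxr2, with log2 ratios of 1.68, 1.24, 1.10, 1.08, 1.08, 1.03 and 1.03. Ggct breaks down gamma-glutamyl peptides of glutathione metabolism. It had 57 of its 271 UMIs in 1 member, and its log2 ratio was 0.15 when the cells were picked without Hmga2. Piezo2, a mechanically gated ion channel, was at 0.01 without Hmga2 in the score, while all of the 15 stayed above 0 in the 18 alternatives tried. Ivl is involucrin of the cornified envelope, Slc20a1 a phosphate transporter, Tnnt2 cardiac troponin T, Fxyd5 a regulator of the sodium pump and Antxr2 a collagen-binding receptor. Fxyd5 was at 277 CPM in the members and 763 CPM in the macrophages, the only 1 of the 15 not above the macrophages. Of the 29 genes past 2-fold, 3 were hemoglobin genes, and 560 of the 615 UMIs of Hbb-bs were in 1 member.

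The 15 genes with the lowest ratios were Tff3, Gsta1, Ly6d, Reg1, Mmp7, Reg3g, Reg3b, Tff2, Dmbt1, Ly6c1, Lcn2, Gsta3, Sptssb, Muc3 and Ttr. Tff3, a trefoil peptide of mucus, had 98 UMIs in the members and 12259 in the other carcinoma cells. Its level was 43.8 CPM (35.5 to 53.4) against 799 CPM (785 to 813), a log2 ratio of -3.91. Reg1, Reg3b and Reg3g, secreted lectins of the Reg family, were at 39.8, 37.1 and 25 CPM against 517, 400 and 300 CPM. Tff2, the trefoil peptide of the gastric neck, was at 36.2 against 390 CPM. Ly6d was at 186 CPM (169 to 205) against 2208 CPM (2185 to 2232), and Ly6c1, another Ly6 protein, at 5.81 against 106 CPM.

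Dmbt1, a scavenger protein of mucosal surfaces, was at 160 against 1292 CPM, and Lcn2, which binds bacterial siderophores, at 64.8 against 528 CPM. Gsta1 and Gsta3, alpha class glutathione transferases, were at 11.2 and 29 CPM against 239 and 226 CPM. Mmp7, the matrix metalloproteinase matrilysin, was at 33.5 against 381 CPM. Sptssb, Muc3 and Ttr had log2 ratios of -2.44, -2.43 and -2.39. In 9 of these 15 genes the members' level was at or below that of the macrophages, as for Tff3 at 46.3 CPM and Tff2 at 72.2 CPM in the macrophages.

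These low values depend on which carcinoma cells the members are set against. Against the 246 epithelial cells among the next 250 by score, which had a median of 6506 UMIs, 4 of 4960 genes were at least 2-fold higher in the members (0.0806%) and 17 at least 2-fold lower (0.343%). The 4 were Hbb-bs, Hba-a1, Gzme and Meg3, named after their values were seen. The highest single member held 91.1% of the Hbb-bs, 89.5% of the Hba-a1, 75.9% of the Meg3 and 19.4% of the Gzme UMIs. All 15 of the highest genes kept a log2 ratio above 0 against these cells, between 0.09 for Piezo2 and 0.74 for Ggct, and none was past 2-fold. Of all 4960 genes 51.6% were above 0, and since the 15 were chosen in these same members, their sign here is no separate evidence. Of the 15 lowest, 9 stayed below 0, 2 of them past 2-fold, and 6 were above 0. Those 6 were Tff2 at 0.87, Reg1 at 0.72, Ly6d at 0.57, Reg3b at 0.53, Reg3g at 0.42 and Tff3 at 0.41. In the member highest for each, the share of the members' UMIs was 51.9% for Tff2, 44.6% for Reg3b and 39.8% for Tff3. It was 36.0% for Reg1, 29.3% for Ly6d and 26.8% for Reg3g. How far these 6 signs rest on such members was not tested. With the cells of clusters 4 and 8 taken out of the comparison, which was decided after the values were seen, 14 genes were at least 2-fold higher and 62 lower. Then Tff3 was at -0.92 and Reg3b at -0.86, while Gsta1 was at -2.72 and Ly6c1 at -2.19.

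**Figure D3:**
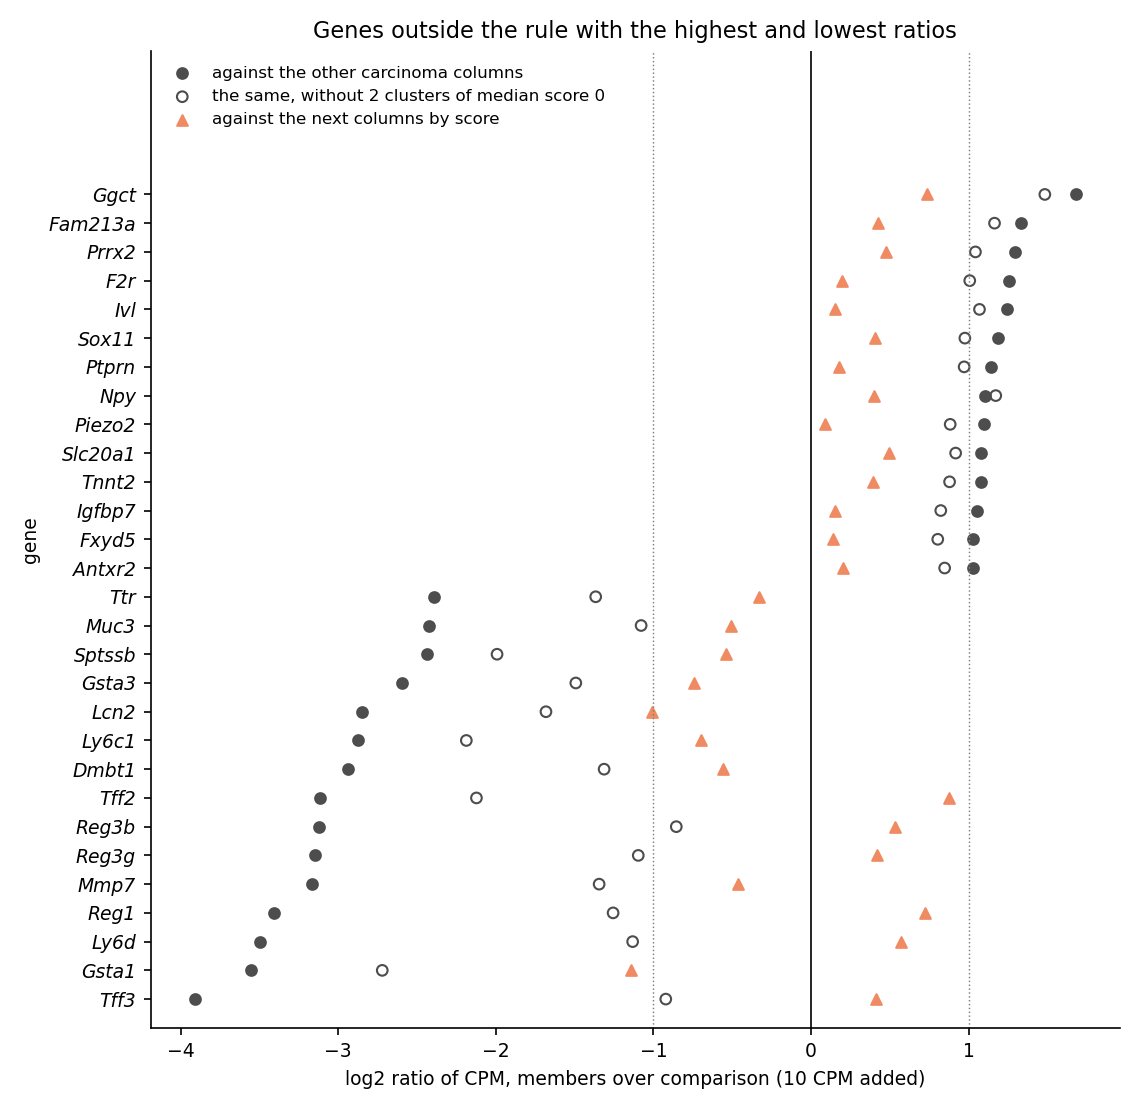
log2 ratio of CPM, with 10 CPM added, of 29 genes in the members over the other carcinoma cells (filled circles), over the same cells without 2 clusters of median score 0 (open circles) and over the next cells by score (triangles). The 14 highest genes shown stay above 0 in all of these comparisons, and 6 of the 15 lowest are above 0 against the next cells. For these 6, the member highest for the gene held 26.8% to 51.9% of the members' UMIs.

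Within the cluster of 256 cells made without the genes of the rule, 96 members were set against 157 other epithelial cells. Here 11 of 2418 genes were at least 2-fold higher (0.455%) and 20 at least 2-fold lower (0.827%), together 31 (1.28%). Among the higher, outside the hemoglobin genes, were Gzme at 2.37, Mcpt2 at 1.71, Bmp1 at 1.15 and Mmp14 at 1.08, on the log2 scale. Here 1 member held 30.1% of the Gzme UMIs of the 96 members. Among the lower were Tff3 at -2.74, the endoplasmic reticulum oxidase Ero1l at -2.30, the metallothioneins Mt2 at -1.73 and Mt1 at -1.59, and Ndrg1, a stress-response gene, at -1.66. Ivl and Piezo2, among the 15 highest genes over all carcinoma cells, were at -0.19 and -0.40 within this cluster, and the other 13 were above 0, as were 63.1% of the 2418 genes. Bmp1, Ero1l, Mt1, Mt2 and Ndrg1 were singled out after their values were seen.

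Over all 2296 epithelial cells that passed the screen, the members included, the score ran most closely with Igfbp7 and Fam213a, with a Spearman rho of 0.53 and 0.52. Next were the actin-capping protein Capg (0.48), the matrix protein Fbln2, the galectin Lgals1 and the membrane linker Msn (0.47 each), the mitochondrial carrier Slc25a4 (0.47), F2r (0.46), Igfbp4 (0.46) and Emp3 (0.46). These cells share 1 library, and both measures depend on the depth of a cell. At the opposite end were Ly6d (-0.56), Gsta3 (-0.53), Dmbt1 (-0.49) and Pglyrp1 (-0.49), along with the ribosomal protein genes Rps27a (-0.48) and Rps6 (-0.47).

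Lists of genes with a shared function were read in the same way. Of the list of secreted defense proteins, 12 of the 14 genes tested were at least 2-fold lower in the members, where 1.20% of all genes were, and the median log2 ratio was -2.47. Beside the Reg genes these included Pigr, the transporter of polymeric antibodies (-2.41), the surfactant lectin Sftpd (-2.21) and Agr2, a disulfide isomerase of mucus-producing cells (-1.93). Slpi (-0.17) and Wfdc2 (-0.41) were not past 2-fold. Against the next cells by score the median of this list was -0.26, and without the clusters of median score 0 it was -1.10. Summed over the list, the level was 3073 CPM in the members, 3733 CPM in the next cells by score, 8977 CPM in the other carcinoma cells and 3004 CPM in the macrophages.

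The list of gastric pit genes had 6 of 12 genes at least 2-fold lower, where 1.20% of all genes were, and a median of -1.11. Tff1, the trefoil peptide of the gastric pit, was at 438 CPM (411 to 467) in the members and 2110 CPM in the other carcinoma cells, a log2 ratio of -2.24. The gastrokine Gkn3 was at 448 against 1250 CPM, and the mucin Muc6 had a log2 ratio of -1.28. Shares of cells differed less than these levels. Tff1 was seen in 53.2% of the members and 54.8% of the others, and Gkn3 in 45.6% and 47.5%. Not all of the list was low, since Anxa8 was at 0.73 and Vsig1 at 0.25. Summed over the list in ranks of 250 cells, the level was 4536 CPM in the epithelial members, 5978 CPM in the next rank and 12150 CPM in the seventh, and fell to 4535 CPM in the last. The median of the list was -0.47 against the next cells by score and -0.31 when the cells were picked without Hmga2. Of the 14 genes of NRF2 targets and glutathione transferases, 5 were at least 2-fold lower (1.20% of all genes), all 14 had a ratio below 0 and the median was -0.80. Against the next cells by score the median was -0.14, with summed levels of 1661 CPM in the members and 1855 CPM in the next cells. In the same ranks their sum rose from 1668 CPM in the members to 5542 CPM in the last.

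Of 10 genes tested of a list of epithelial to mesenchymal transition (EMT), 2 were at least 2-fold higher, where 0.318% of all genes were, and the median log2 ratio was 0.60. Cdh2, N-cadherin, was at 69.7 CPM against 29.6 CPM, and Mmp14, a membrane-bound collagenase, at 188 CPM against 88.3 CPM, both with a log2 ratio of 1.01. Vim, the intermediate filament vimentin, was at 1050 CPM (1007 to 1093) against 764 CPM (750 to 777) and was seen in 88.0% against 59.5% of the cells. Zeb1 was at 0.62, Tgfb1 at 0.69 and S100a4 at 0.65. Sparc, a matrix protein of fibroblasts too, went the other way, with 23 UMIs in the members and a log2 ratio of -1.36. Summed over the list, the level was 2712 CPM in the members, 2757 CPM in the next cells by score and 2077 CPM in the other carcinoma cells, so the sum was no higher in the members than in the next cells. Fn1, fibronectin, was at 0.15 against the other carcinoma cells and at -0.49 against the next cells. Neither Cdh2 nor Mmp14 was past 2-fold without the clusters of median score 0, at 0.80 and 0.89, or against the next cells by score, at 0.46 and 0.52. The median of the list was 0.42 against the next cells by score and 0.17 when the cells were picked without Hmga2.

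Of 22 epithelial junction genes tested, 3 were at least 2-fold lower, 19 were below 0 and the median was -0.31, where 1.20% of all genes were at least 2-fold lower and 46.0% below 0. The gastric claudin Cldn18 had 10 UMIs in the members and 823 in the others, a log2 ratio of -2.14, and Prom1, the surface protein CD133, had 27 and 1237, at -2.04. The small GTPase Rab25 was at -1.11, and at -0.51 without the clusters of median score 0. Against the next cells by score none of the 3 was past 2-fold, with Prom1 at -0.91, Cldn18 at -0.88 and Rab25 at -0.52. Epcam, the epithelial adhesion molecule, was at 704 CPM (670 to 740) against 1173 CPM (1156 to 1190), and Krt19 at 1292 against 1799 CPM, with a UMI of Krt19 in 84.8% of the members and 92.1% of the others.

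**Figure D4:**
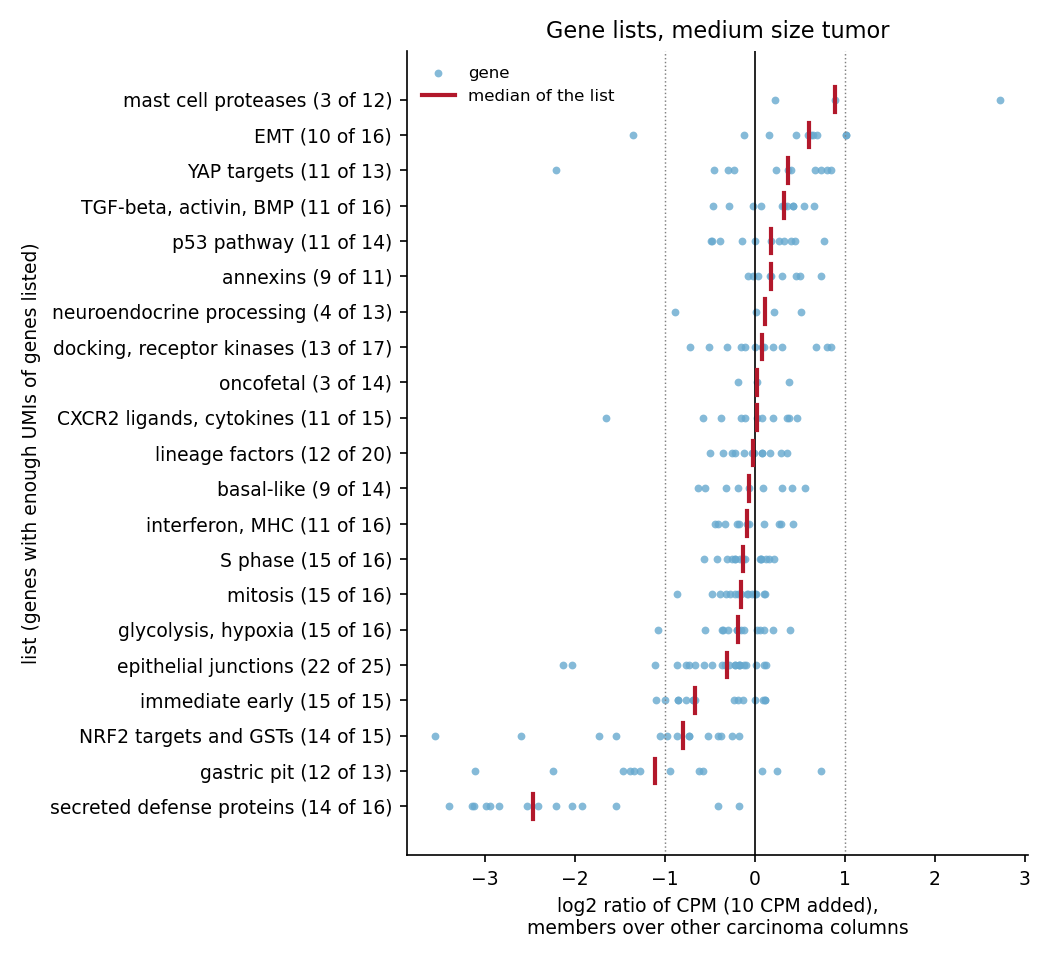
log2 ratio of CPM, with 10 CPM added, of the members over the other carcinoma cells for each gene tested (points) and the median (bar) of 21 lists. The lists of secreted defense proteins, gastric pit genes and NRF2 targets have the lowest medians, at -2.47, -1.11 and -0.80, and the EMT list is at 0.60.

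Immediate early genes, which respond within minutes to growth factors and to tissue dissociation, had 2 of 15 genes at least 2-fold lower in the members, where 1.20% of all genes were, with 11 below 0, 4 above 0 and a median of -0.66. Atf3, a stress-induced transcription factor, was at 203 against 447 CPM and Dusp1, a phosphatase of MAP kinases, at 155 against 321 CPM. Fosb had a log2 ratio of -0.86. Without the clusters of median score 0 none of the 15 was past 2-fold, with Atf3 at -0.87 and Dusp1 at -0.74, and the median was -0.40 there and -0.27 against the next cells by score. Dissociation took place in all cells of the tumor, and its part in this difference was not tested.

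Apart from the mast cell proteases described below, the medians of the other lists lay between -0.19 and 0.36, beside 0.03 for all genes. In 11 lists no gene was past 2-fold. Their medians ran from -0.16 for 15 mitotic genes and -0.13 for 15 genes of S phase, over -0.09 for interferon and MHC genes, -0.07 for basal-like genes and -0.02 for lineage transcription factors, to 0.03 for oncofetal genes, 0.07 for docking proteins and receptor kinases, 0.11 for neuroendocrine processing, 0.18 for annexins and for the p53 pathway and 0.32 for TGF-beta, activin and BMP genes. Only 3 of the 14 oncofetal genes and 4 of the 13 genes of neuroendocrine processing were tested, so these medians rest on few genes. In the members 7 of the 14 oncofetal genes were at 0 UMIs. Of the 3 tested, Igf2bp2, an RNA-binding protein, was at 41.1 CPM against 29.3 CPM, while Igf2bp3 (20 UMIs) and Igf2bp1 (9 UMIs) were low in both groups. Inhba, the activin A subunit, was at 168 against 102 CPM, and Dok1, a relative of Dok2, at 45.1 against 20.6 CPM. The receptor kinases went both ways, with Axl at 0.80 and Erbb3 at -0.72. Pdx1 was at -0.01, Sox9 at -0.22 and Gata6 at -0.12. The proliferation gene Mki67 was at 14.7 CPM (33 UMIs) against 22.3 CPM.
In 3 further lists, of 15, 11 and 11 genes tested in the order given here, 1 gene each was at least 2-fold lower, where 1.20% of all genes were. Among genes of hypoxia and glycolysis (median -0.19) it was Car9, a carbonic anhydrase, at -1.08, and at -0.83 without the clusters of median score 0. Among CXCR2 ligands and cytokines (0.02) it was the chemokine Cxcl5, at -1.65. Among YAP target genes (0.36) it was Yap1 itself.

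When the 250 cells highest in each of 8 lists were set beside the members, the overlap was 40 cells for EMT genes, 34 for TGF-beta, activin and BMP genes, 28 for basal-like genes, 26 for S phase and 25 for mitosis, where 10.0% of the ranked cells are members. It was 12 for gastric pit genes, 7 for epithelial junction genes and 0 for secreted defense proteins.

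Yap1, the transcriptional coactivator of the Hippo pathway, was low in the members together with its neighbors on chromosome 9. Yap1 had 79 UMIs in the members and 3069 in the other carcinoma cells, 35.3 CPM (27.9 to 44.0) against 200 CPM (193 to 207). Between chr9:7184520 and chr9:8004596, Dcun1d5 was at 205 against 985 CPM, Tmem123 at 33.1 against 163 CPM, Birc2 at 18.3 against 63.5 CPM and Birc3 at 13.0 against 44.4 CPM. Birc2 and Birc3 are inhibitors of apoptosis. Mmp7 lies in the same stretch, while its neighbor Mmp10 was at 0.97, and Mmp13 at -0.14. Summed over Dcun1d5, Mmp7, Tmem123, Birc2, Birc3 and Yap1, the median cell was at 252 CPM in the members and 441 CPM in the others. A sum above 5000 CPM was found in 1 member (0.400%, 0.0101% to 2.21%) and in 153 of the other carcinoma cells (7.47%, 6.37% to 8.69%). In the 246 next cells by score it was found in 5. The 90th percentile of the sum was 587 CPM in the members and 3912 CPM in the other carcinoma cells. Within the cluster of 256 cells made without the rule genes, the 6 genes went both ways, with Birc2 at 0.72, Tmem123 at 0.54, Mmp7 at 0.10, Dcun1d5 at -0.02, Birc3 at -0.12 and Yap1 at -0.37.

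Mcpt8 was high together with some of its neighbors in the mast cell protease and granzyme cluster on chromosome 14. Of 3 protease genes tested of a list of 12, 1 was at least 2-fold higher, where 0.318% of all genes were. Gzme, granzyme E, begins at position 56117626, and had 191 UMIs in the members and 68 in the other carcinoma cells. Its level was 85.3 CPM (73.7 to 98.3) against 4.43 CPM (3.44 to 5.62), a log2 ratio of 2.72, and it was at 5.56 CPM in the macrophages. Of the 191 UMIs, 37 were in 1 member. Gzme was seen in 60 of the 196 members with a Mcpt8 UMI (30.6%) and in 1.85% of the members without one. In the other carcinoma cells these shares were 6.25% and 1.68%. Mcpt2, a mucosal mast cell protease, was at 418 against 221 CPM, and Mcpt1 at 109 CPM (96.2 to 124) against 92.2 CPM. Gzmb, Gzmc and Gzmf were at 0 UMIs in both groups, and Gzmd, Cma1 and Ctsg at 0 in the members. When the cells were picked without Mcpt8 in the score, the median of the 3 was -0.01. These genes are close relatives, and how reads matching more than 1 of them were counted is not given in the sources used here.

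The same score was applied to the large size tumor, whose cells the rule had not used. That tumor had 2239012 UMIs in 1533 cells with a median of 1037 UMIs per cell, against 20301669 UMIs in the medium size tumor, so its values are less precise. The highest 147 of its 1463 cells passing the screen (10.0%) were taken, of which 125 were epithelial, 10 were red blood cells and 10 were granulocytes by their markers. They had a median of 1989 UMIs against 1157 in the 837 other epithelial cells of that tumor, and a median of 3 of the 7 genes with a UMI. The pick fixes that the genes of the rule are higher in them, and their levels are given as a description. Hmga2 was at 422 CPM (359 to 494) in them and 66.9 CPM (53.6 to 82.5) in the others, and Mcpt8 at 320 CPM (264 to 383) and 49.2 CPM (37.9 to 62.9). Cldn6 was at 217 and 43.8 CPM. Mcpt8, Cldn6, En1 and Cpe had 0 UMIs in the 222 macrophages of this tumor, where a floor of 3 UMIs is 17.3 CPM.

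Many of the genes that stood apart in the medium size tumor stood apart here in the same direction. Of 2200 genes with at least 100 UMIs, 1.27% were at least 2-fold higher and 6.23% at least 2-fold lower in the cells highest by score. Of the 15 genes highest in the medium size tumor, 12 had a log2 ratio above 0, and for 10 of them the 95% interval of the ratio lay above 1. By comparison, 52.9% of the 2200 genes were above 0. Npy had 71 UMIs in the 147 cells and 34 in the 837 others, a ratio of 7.35 (4.82 to 11.4). F2r was at 100 against 33.1 CPM, Prrx2 at 284 against 114 CPM and Sox11 at 211 against 92.3 CPM. Slc20a1 and Tnnt2 were among the 3 below 0, at -0.32 and -0.25, with intervals of the ratio that include 1.

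All 15 of the lowest genes were below 0 here as well, with a median of -2.96, and for 14 the interval lay below 1, where 1036 of the 2200 genes were below 0. Dmbt1 had 11 UMIs against 784, a log2 ratio of -3.95, Reg3b 13 against 735 and Tff2 49 against 1465. Ly6c1, with 6 and 42 UMIs, was the exception, with a ratio of 0.503 (0.175 to 1.19). Of the list of secreted defense proteins, 8 of 9 genes tested were at least 2-fold lower, where 6.23% of the 2200 genes were, with a median of -3.52. The median was -1.55 for 7 gastric pit genes and 1.05 for 3 EMT genes. Of the 6 genes around Yap1, 2 were above 0 and 4 below 0 here. Yap1 was at 0.32 and Dcun1d5 at 0.29, on 18 and 69 UMIs in the cells highest by score, while both were at -2.21 in the medium size tumor. Mmp7 was at -1.55, Birc2 at -0.38, Tmem123 at -0.34 and Birc3 at -0.09, on 0, 2, 10 and 3 UMIs. The difference between the tumors was not tested, since each is 1 sample, and the depth of the cells and the other cell types among those picked move with the score here too. Their part was not tested.

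**Figure D5:**
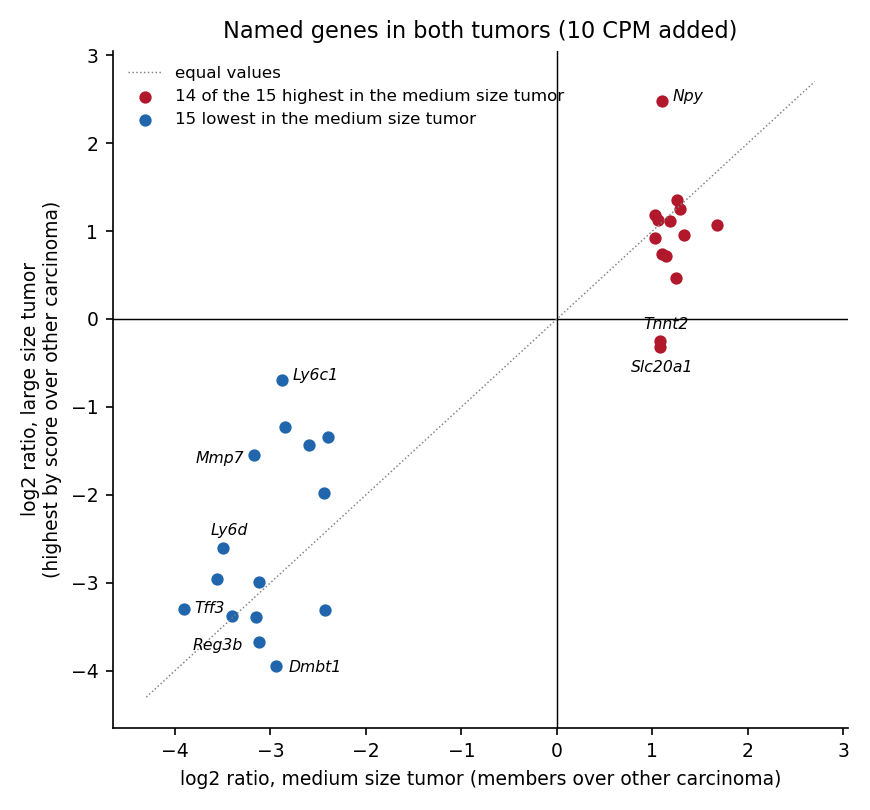
log2 ratio, with 10 CPM added, of 29 genes in the medium size tumor (horizontal axis, members over other carcinoma cells) and in the large size tumor (vertical axis, the 147 cells highest by score over 837 other epithelial cells). The 15 lowest genes of the medium size tumor are all below 0 in the large size tumor, and 12 of the 14 highest shown are above 0.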

How the data were processed

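Gene by barcode tables of UMI counts of 2 tumors were analysed. The authors aligned reads with Cell Ranger and deposited whole-number counts without normalization. Per the submitters' processing notes the build was mm10, and the version of Cell Ranger is not given in the sources used here. The 4 technical replicates of a tumor are pooled in its table, so no test was made. All 13 genes of the mitochondrial genome in the table hold 0 UMIs. No cell was removed, and 39 symbols name more than 1 row.

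Cells were scored by the rule, classed by 14 marker lists, and UMIs were summed per group and divided by the summed totals (CPM). Ratios of levels add 10 CPM to both groups, except those given with an interval. Genes with at least 100 UMIs over both groups, called tested, were read for a 2-fold difference, a fixed size with no p-value. The genes named are those of the rule, the 15 highest and 15 lowest ratios (seen in at least 25% of the cells of the higher group), the 3 largest changes in each of 21 function lists, and the 10 genes closest to the score by Spearman rho among genes with at least 500 UMIs. Some items are not reported here, although the counts include them. Genes named beyond this rule are examples chosen after their values were seen. The members and all lists were chosen with earlier results of these data known. Clusters came from Seurat 5.3.0 in R 4.3.3 with 2000 variable genes, 10 principal components and a resolution of 0.8, and doublet scores from Scrublet in scanpy 1.11.5. Other steps used Python 3.11.15, numpy 2.4.6, scipy 1.17.1 and pandas 2.3.3, and were tested on simulated data. Gene positions came from GENCODE M21 and promoters from RefSeq, both on GRCm38. The alternatives tried are given at the end.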

Additional observations from a re-analysis of the deposited data

How the results depend on the processing

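Of the counts past 2-fold, the higher count of 29 became 18 when cells were thinned to 2500 UMIs before scoring, 16 without Hmga2 in the score, 49 without Anxa10, 17 with a minimum of 500 UMIs and 89 with 1 CPM added, where the lower count of 109 became 335. Without the clusters of median score 0, an alternative added after seeing the data, the counts were 14 and 62. The share of epithelial members stayed within counting error in the 11 alternatives of the rule. No log2 ratio of the 30 named genes changed sign in 18 alternatives. The medians of the lists of lineage factors and basal-like genes changed sign in 9 and 6 of the 18, those of the lists of CXCR2 ligands and of mitosis in 3 and 2, and those of 7 further lists in 1. No paired analysis was possible because the pooled tables carry no replicate numbers. Depth limits the large size tumor, where the cells taken had a median of 3 of the 7 genes with a UMI, and genes under 100 UMIs were not read for a 2-fold difference.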

Other observations

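The median log2 ratio of the members over the other carcinoma cells differed between chromosomes. It was 0.25 over 313 genes of chromosome 14, where Mcpt8 and Dok2 lie, 0.22 over 238 genes of chromosome 18 and 0.14 over 498 genes of chromosome 8, where Cpe and Anxa10 lie. It was -0.23 over 408 genes of chromosome 17, which carries Cldn6, and -0.18 over 521 genes of chromosome 4, beside a median of 0.03 over all 9112 genes. In the large size tumor the medians of chromosomes 14, 18 and 8 were 0.07, 0.06 and 0.16, and those of chromosomes 17 and 4 were -0.05 and -0.07. Genes of a chromosome are not independent, and these values were not tested.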
